A study of Mus musculus with 12 samples.

Results

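Complement genes, 9 in number and named as C3, C4b, Cfb, Cfp, C1ra, Serping1, C3ar1, C5ar1 and Cd55, were followed in cultured mouse cardiac fibroblasts with or without a virus that deletes Smad7, which encodes an inhibitor of TGF-β signaling. The members were the 9 rows of the deposited gene table that carry these symbols, out of 35275 genes in all, and 8 of them, all but Cfb, had enough reads to be tested among 15150 genes. RNA-Seq was performed on 12 libraries from cells of Smad7-floxed C57BL/6 mice aged 12 weeks, used at passage 2 and infected with adenovirus at an MOI of 100 for 48 hours. Control cells received a GFP adenovirus according to the sample labels (an empty virus according to the study's methods), and Smad7-KO cells received a virus expressing Cre. Each genotype was left unstimulated or was given TGF-β1 at 10 ng/ml, for which the labels state 2 hours in one place and 4 hours in another, with 3 libraries in each of the 4 groups. The sample titles call the control cells wild type, whereas the study's methods describe floxed cells that received either virus. By that description all cells carried the floxed gene and an adenovirus. The sources used here name no restriction of Cre to 1 cell type of the culture.

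Complement is a cascade of plasma and cell surface proteins in which recognition molecules start proteases, the proteases assemble convertases on a surface, and the convertases cleave C3 and C5. The fragments C3a and C5a signal through the receptors C3aR and C5aR1, which myeloid cells carry in abundance, while C3b tags surfaces for uptake. Regulators in fluid and on membranes, such as C1 inhibitor and decay-accelerating factor, keep the cascade in check on host cells.

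The receptors and a membrane regulator moved in opposite directions when Smad7 was lost. C3ar1 and C5ar1, which encode the receptors for C3a and C5a, rose in Smad7-KO cells without and with TGF-β1. Cd55, which encodes decay-accelerating factor, and C1ra, which encodes the C1r protease, fell in both settings. TGF-β1 itself lowered C5ar1 in both genotypes, and no other member passed the test for TGF-β1. Of the 8 tested members, 4 were called in unstimulated cells (2 rose, 2 fell) beside 25.8% of all tested genes, and 4 were called in TGF-β1-stimulated cells (2 rose, 2 fell) beside 13.0% of all tested genes. The libraries of the compared groups did not overlap for 5 members in unstimulated cells, where 41.3% of all tested genes did not overlap, and for 5 members in TGF-β1-stimulated cells, where the share was 44.9%. With TGF-β1, 1 member was called in control cells (8.37% of all tested genes) and 1 in Smad7-KO cells (10.2%), and the groups did not overlap for 2 members in control cells (19.8% of all tested genes) and for 1 in Smad7-KO cells (39.0%).

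The promoters of the 4 members that were called are shown because these genes moved in pairs. Each run is the 250 bases before the gene start in RefSeq on GRCm38.p6, written 5′ to 3′ on the gene's strand, and 6 of the 9 members matched the promoter table.
C3ar1, chr6:122856158-122856407, minus strand: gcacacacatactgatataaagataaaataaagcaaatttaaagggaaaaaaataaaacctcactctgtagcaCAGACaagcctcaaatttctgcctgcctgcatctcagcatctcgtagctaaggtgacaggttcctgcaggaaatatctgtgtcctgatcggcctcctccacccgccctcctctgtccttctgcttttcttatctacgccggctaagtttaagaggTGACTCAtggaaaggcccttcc
C5ar1, chr7:16259339-16259588, minus strand: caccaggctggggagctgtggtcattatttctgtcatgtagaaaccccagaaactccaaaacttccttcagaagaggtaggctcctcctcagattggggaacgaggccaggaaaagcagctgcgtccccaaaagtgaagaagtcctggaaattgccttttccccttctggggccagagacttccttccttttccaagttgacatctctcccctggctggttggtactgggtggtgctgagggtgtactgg
Cd55, chr1:130462745-130462994, minus strand: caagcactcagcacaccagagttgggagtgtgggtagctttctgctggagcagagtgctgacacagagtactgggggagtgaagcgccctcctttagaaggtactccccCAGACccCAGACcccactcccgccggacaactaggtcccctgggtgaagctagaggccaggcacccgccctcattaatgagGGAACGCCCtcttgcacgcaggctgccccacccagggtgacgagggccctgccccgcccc
C1ra, chr6:124512371-124512620, plus strand: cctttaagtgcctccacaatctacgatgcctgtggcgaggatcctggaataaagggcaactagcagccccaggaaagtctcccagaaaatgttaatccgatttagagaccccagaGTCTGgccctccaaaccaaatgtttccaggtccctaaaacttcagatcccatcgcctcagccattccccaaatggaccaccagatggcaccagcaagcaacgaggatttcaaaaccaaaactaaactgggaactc
Capitals mark matches to 5 short motifs searched on both strands, and no match overlapped another. The Smad box CAGAC was present in 4 of the 6 matched members (Cfp, C1ra, C3ar1 and Cd55) and in 42.2% of 32841 promoters of the same length, so that its presence here was common. In C3ar1 it began 177 bases before the start, in C1ra 135, and in Cd55 both 141 and 134. The AP-1 motif TGANTCA was found in C3ar1 alone, 22 bases before the start, against 6.75% of all promoters, and the NF-kB motif GGGNNTTCC in Cd55 alone, 60 bases before the start, against 4.98%. The GAS motif TTCNNNGAA (7.02% of all promoters) and GAGGAA (23.3%), a longer form of the Ets core GGAA, had no match in the 6 members. The short core GGAA was not among the motifs searched, and it occurs in the printed runs. C5ar1, the member that TGF-β1 lowered, held none of the 5 motifs in this window. Most of that window lies inside the gene as bounded in the deposited table, where this minus-strand gene begins at 16259540. The bases before that other start were not searched in full.

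The libraries held 19056916 to 25371321 counts. Smad7 was checked first, and its normalized level was 71.4, 74.6 and 77.2 CPM in unstimulated control cells against 28.6, 28.4 and 31.1 CPM in unstimulated Smad7-KO cells. Its RNA was thus lowered there but not absent, and each of the 12 libraries held at least 578 counts of it. The libraries carried RNA of several cell types. All 10 fibroblast markers were detected, with a summed level of 7350 to 11366 CPM, but 11 macrophage markers summed to more than that in every library, Lyz2 included. That sum was 15444 to 21404 CPM in unstimulated control, 14776 to 16713 in TGF-β1 control, 23039 to 24822 in unstimulated Smad7-KO and 22113 to 23539 CPM in TGF-β1 Smad7-KO cells, with no marker at 0. Without Lyz2, which encodes lysozyme and supplied most of it, the sum was 5549 to 6492 CPM in the 6 control libraries, below the fibroblast sum in each, and 9545 to 10401 CPM in the 6 Smad7-KO libraries. Of the 11, 7 rose and 0 fell with Smad7 loss in unstimulated cells, and 6 rose and 0 fell with TGF-β1. The 10 endothelial markers went the other way, with sums of 291 to 343 CPM in the 6 control libraries and 51.7 to 61.6 CPM in the 6 Smad7-KO libraries, 7 of 10 falling and 1 rising in each setting. In bulk RNA, a change in the number of cells of a type and a change in RNA per cell cannot be told apart. Library 2 of the unstimulated controls stood apart, with a summed FPKM of 550339 where the other 11 libraries had 394971 to 463056, the lowest fibroblast sum and, with Lyz2, the highest macrophage sum among controls. Without Lyz2 its macrophage sum of 5685 CPM was the lowest of the unstimulated controls. Its values also differed by gene length. Of the tested members, it was the highest unstimulated control for Cfp and Serping1, with gene lengths of 1636 and 1768 bases. It was the lowest for C1ra, C3ar1, C3 and C4b (2751, 4305, 5136 and 5379 bases), and between the others for C5ar1 and Cd55 (2540 and 3133 bases). The parts of length and of cell composition in its marker sums and ratios were not tested.

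**Figure D1:**
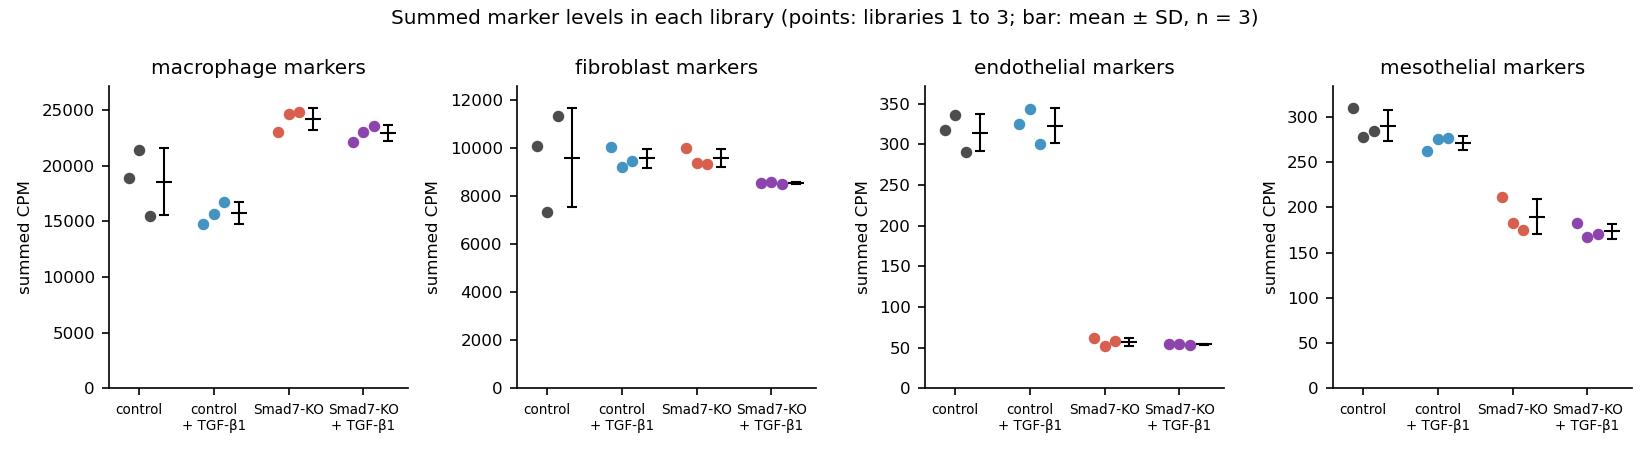
Summed CPM of the macrophage, fibroblast, endothelial and mesothelial marker lists (y axes) in the 12 libraries by group (x axes); points are libraries and bars show mean ± SD, n = 3. Every Smad7-KO library lies at 22113 CPM or above for macrophage markers, where no control library exceeds 21404, and at 61.6 CPM or below for endothelial markers, where no control library falls under 291.

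Levels of different genes were compared per length, as FPKM. Properdin (Cfp) and C1 inhibitor (Serping1) had the highest medians over the 12 libraries, at 147 and 144 FPKM, followed by C3 at 126 and C3ar1 at 118 FPKM, and the ranges of these 4 genes overlapped (59.1 to 232 FPKM over all of them). C5ar1 followed at a median of 66.2 FPKM. A further group lay well below, with Cd55 at 9.91, C1ra at 9.36 and C4b at 9.29 FPKM, and these 3 did not differ beyond their spread between libraries (6.13 to 12.8 FPKM over the 3). Cfb was at or near 0. The 3 chains of C1q, the recognition molecule of the classical pathway, were far above all members, with medians of 1684 FPKM for C1qa, 1701 for C1qb and 1407 for C1qc.

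**Figure D2:**
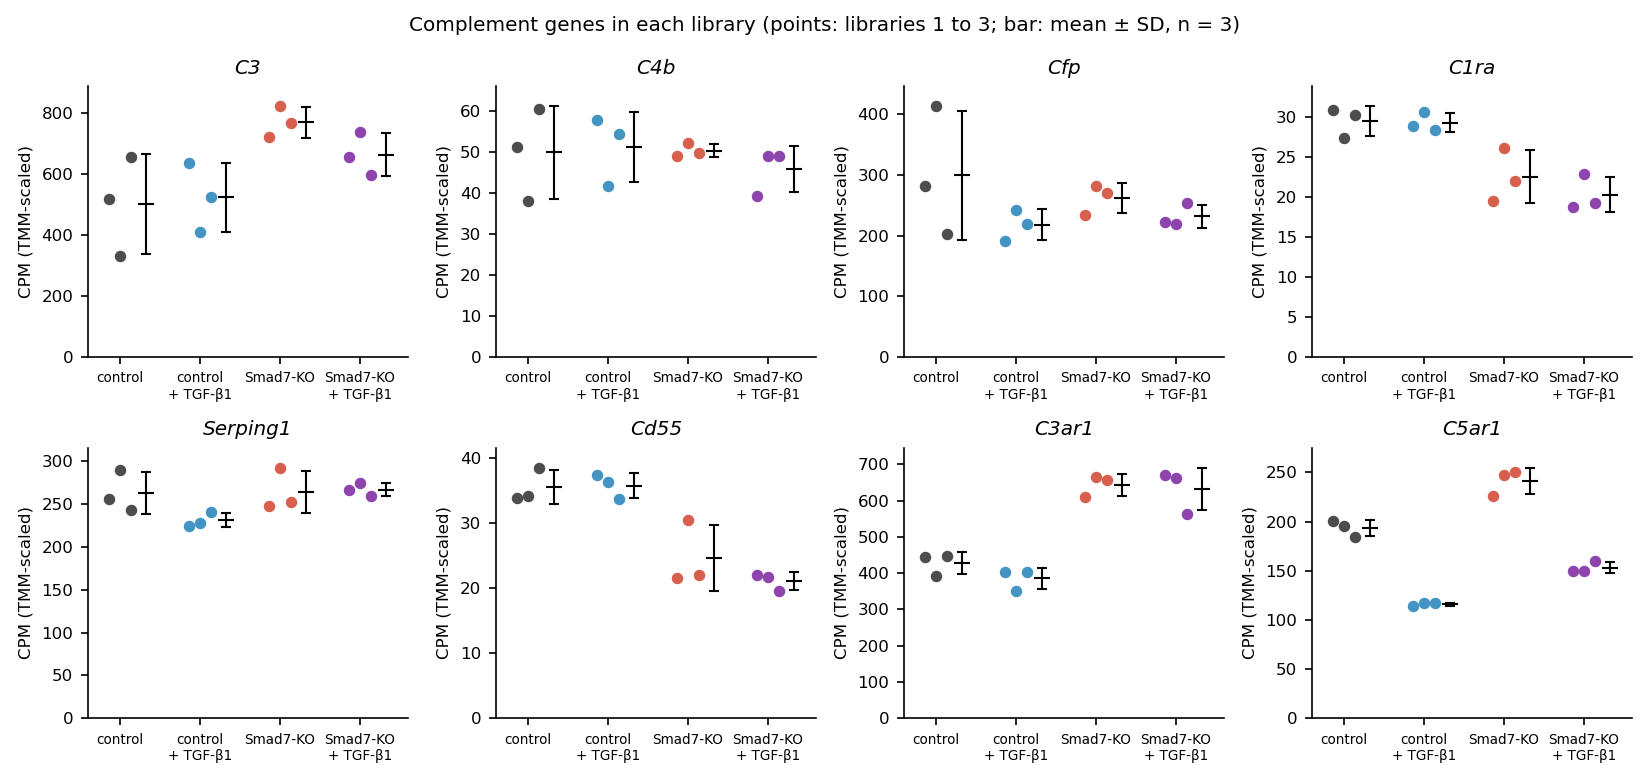
TMM-scaled CPM (y axes) of the 8 tested members in the 4 groups (x axes); points are libraries 1 to 3 and bars show mean ± SD, n = 3. C3ar1 lies at 564 CPM or above in every Smad7-KO library and at 446 or below in the controls, Cd55 at 30.5 or below and at 33.6 or above, and C5ar1 forms 4 separate groups that are lower with TGF-β1.

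C3ar1 (chr6:122847138-122856161, minus strand) encodes the receptor for the anaphylatoxin C3a. Its level was 445, 393 and 446 CPM in unstimulated control cells and 609, 665 and 655 CPM in unstimulated Smad7-KO cells. After TGF-β1 it was 404, 352 and 402 CPM in control cells and 669, 663 and 564 CPM in Smad7-KO cells. Every Smad7-KO library was above every control library, and within a genotype the libraries with and without TGF-β1 overlapped. Smad7 loss raised C3ar1 by 1.503-fold in unstimulated cells (log2 0.59, SE 0.11, edgeR adjusted p = 0.00398) and by 1.64-fold in TGF-β1-stimulated cells (log2 0.71, SE 0.11, adjusted p = 0.00186). TGF-β1 changed it by -0.15 on the log2 scale in control cells (95% interval -0.39 to 0.09) and by -0.03 in Smad7-KO cells (-0.26 to 0.21). The rise in TGF-β1-stimulated cells was called under all 22 alternatives, and that in unstimulated cells under 21 of 22, the exception being edgeR on the 6 libraries of that comparison alone (adjusted p = 0.0555).

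C5ar1 (chr7:16246743-16259540, minus strand), which encodes the receptor for C5a, responded to both Smad7 loss and TGF-β1, in opposite directions. Unstimulated control libraries had 201, 195 and 184 CPM, and unstimulated Smad7-KO libraries had 226, 247 and 251 CPM. With TGF-β1 the values were 114, 117 and 117 CPM in control and 149, 149.9 and 159 CPM in Smad7-KO cells. The 4 groups were separate, and the spread within TGF-β1 control was small (116 ± 1.41 CPM, SD, n = 3). TGF-β1 lowered C5ar1 to 0.5998 of its unstimulated level in control cells (log2 -0.74, SE 0.08, edgeR adjusted p = 0.000175) and to 0.634 in Smad7-KO cells (log2 -0.66, SE 0.08, adjusted p = 0.000339), and both calls held under all 22 alternatives. Smad7 loss raised it by 1.25-fold without TGF-β1 (log2 0.32, SE 0.08, adjusted p = 0.0214) and by 1.32-fold with it (log2 0.40, SE 0.08, adjusted p = 0.0103). The difference between the TGF-β1 effects of the genotypes was 0.08 on the log2 scale (95% interval -0.18 to 0.34). The rise in unstimulated cells is the less secure of these results, since it lost its call under 5 of 22 alternatives. These were edgeR and DESeq2 on only the 6 libraries compared (adjusted p = 0.1495 and 0.0512), no filter on low counts (0.0773), and the omission of library 2 or library 3 of unstimulated Smad7-KO (0.0803 and 0.0857). The rise with TGF-β1 lost its call under 1 of 22, without a filter (adjusted p = 0.0520).

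Macrophage markers rose with Smad7 loss in the same libraries as both receptors, and the receptors were therefore also expressed per 1000 summed CPM of those markers, a scale chosen after seeing the data. With the full list, C3ar1 was 18.4 to 28.9 in unstimulated control and 26.4 to 27.0 in unstimulated Smad7-KO cells, and 22.4 to 27.3 and 24.0 to 30.3 with TGF-β1, so that the genotypes overlapped in both settings. The ratio was repeated without Lyz2, which gave 68.7 to 70.6 against 62.4 to 67.2 without TGF-β1 and 62.3 to 66.2 against 59.1 to 65.1 with it. On neither scale was C3ar1 higher in Smad7-KO cells without overlap, and without Lyz2 it was lower in unstimulated Smad7-KO cells than in any unstimulated control. C5ar1 was likewise not higher in Smad7-KO cells on this scale, at 9.13 to 11.9 against 9.79 to 10.1 without TGF-β1 and 6.99 to 7.74 against 6.51 to 6.77 with it, and without Lyz2 it was lower in Smad7-KO cells in both settings. The TGF-β1 effect on C5ar1 was still present, with mean ratios of 0.6997 in control and 0.670 in Smad7-KO cells relative to unstimulated cells and no overlap, and 0.612 and 0.621 without Lyz2. Per 1000 summed CPM of the fibroblast markers, C3ar1 was higher in Smad7-KO cells without overlap in both settings. It was 39.2 to 53.5 against 60.8 to 70.9 without TGF-β1 and 38.1 to 42.5 against 66.3 to 78.1 with it. On that scale C5ar1 overlapped without TGF-β1 (16.2 to 26.6 against 22.5 to 26.8) and was higher with it (11.4 to 12.6 against 17.4 to 18.7). The receptor differences for Smad7 loss thus depended on the markers used as the scale. Whether a change in macrophage number contributed to the receptor values was not tested.

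**Figure D3:**
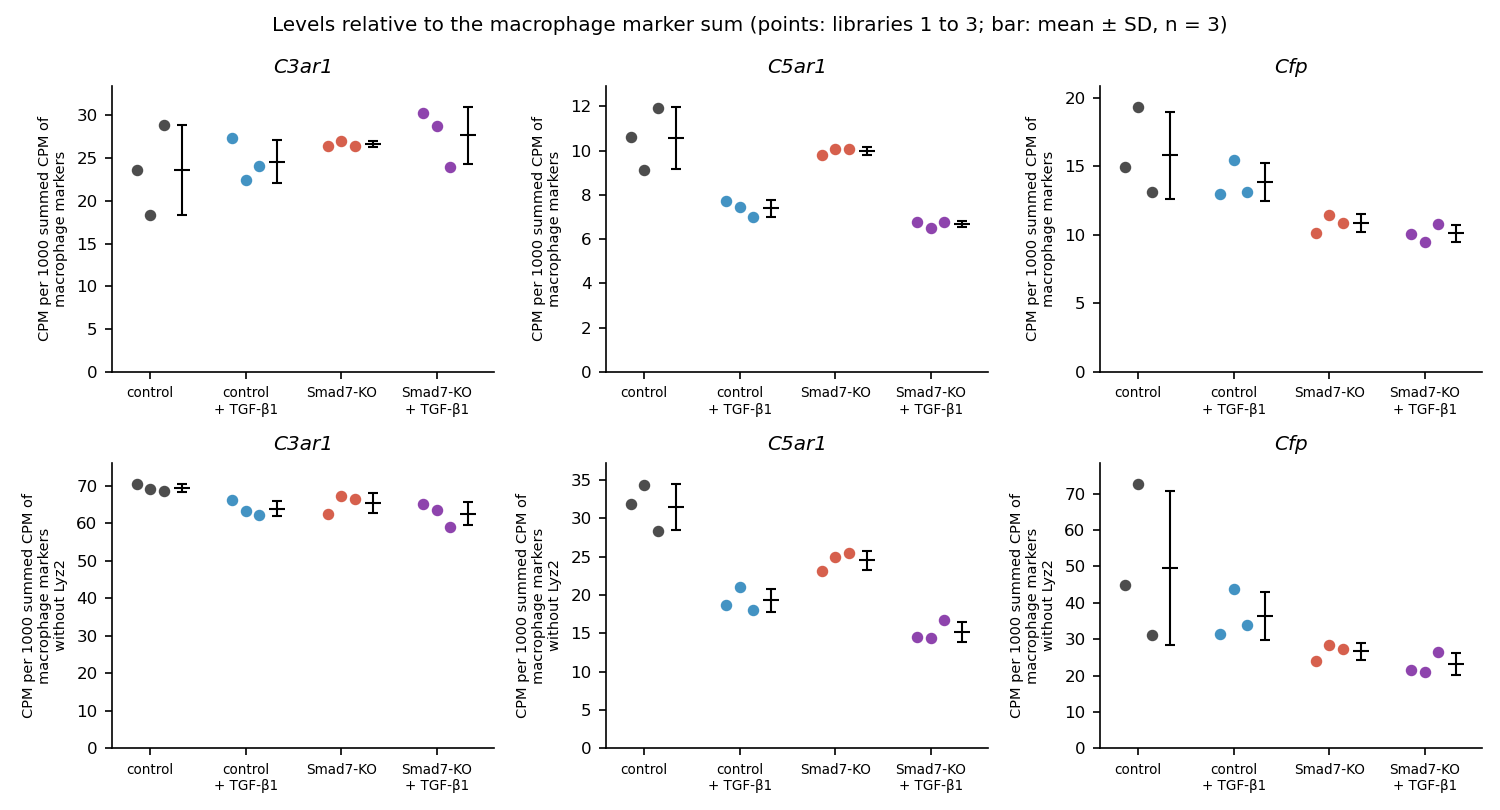
CPM of C3ar1, C5ar1 and Cfp per 1000 summed CPM of the macrophage markers, with Lyz2 (upper row) and without it (lower row), on the y axes, in the 4 groups on the x axes; points are libraries and bars show mean ± SD, n = 3. C5ar1 is lower with TGF-β1 in both genotypes, C3ar1 lies between 59.1 and 70.6 in all 12 libraries without Lyz2, and Cfp is lower in Smad7-KO cells.

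Cd55 (chr1:130439027-130462744, minus strand) encodes decay-accelerating factor, a membrane protein that dissociates C3 and C5 convertases. It was measured at 33.8, 34.2 and 38.5 CPM in unstimulated control cells and at 21.5, 30.5 and 21.9 CPM in unstimulated Smad7-KO cells. The TGF-β1 libraries gave 37.3, 36.2 and 33.6 CPM in control and 22.0, 21.7 and 19.5 CPM in Smad7-KO cells. Each of the 6 Smad7-KO libraries was below all 6 control libraries, and library 2 of unstimulated Smad7-KO came nearest to the controls. Smad7 loss lowered Cd55 to 0.695 of control in unstimulated cells (log2 -0.52, SE 0.14, edgeR adjusted p = 0.0205) and to 0.590 with TGF-β1 (log2 -0.76, SE 0.14, adjusted p = 0.00464). The call with TGF-β1 held under all 22 alternatives, whereas the call in unstimulated cells was lost under 4, among them leaving out library 1 or library 3 of unstimulated Smad7-KO (adjusted p = 0.0873 for each). TGF-β1 did not separate the groups in either genotype, with changes of 0.01 (95% interval -0.29 to 0.31) and -0.23 (-0.53 to 0.07) on the log2 scale. Endothelial and mesothelial marker sums also fell in these libraries, the latter from 263 to 310 CPM in controls to 168 to 212 CPM in Smad7-KO cells, and their part in the Cd55 values was not tested. Per 1000 summed CPM of the fibroblast markers, Cd55 was 3.33 to 4.65 against 2.15 to 3.25 in unstimulated and 3.55 to 3.92 against 2.30 to 2.57 in TGF-β1-stimulated cells, again without overlap. Of its 100-base transcript windows, 6.86% also occur in the copy Cd55b (listed as Daf2), which had 0 or 1 counts per library.

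C1ra (chr6:124512632-124523440, plus strand in the deposited table) encodes C1r, the protease that activates C1s in the C1 complex. Its level was 30.9, 27.4 and 30.3 CPM in unstimulated control cells, and 19.5, 26.1 and 22.0 CPM in unstimulated Smad7-KO cells. TGF-β1 control libraries had 28.8, 30.7 and 28.4 CPM, and TGF-β1 Smad7-KO libraries had 18.8, 22.8 and 19.3 CPM. As for Cd55, every Smad7-KO library was lower than every control library and library 2 of unstimulated Smad7-KO was the closest. Per 1000 summed CPM of the fibroblast markers, however, C1ra overlapped in unstimulated cells (2.66 to 3.73 against 1.95 to 2.78) and was separate with TGF-β1 (2.87 to 3.32 against 2.19 to 2.65). C1ra fell to 0.763 of control without TGF-β1 (log2 -0.39, SE 0.13, edgeR adjusted p = 0.0432) and to 0.693 with it (log2 -0.53, SE 0.13, adjusted p = 0.0182). The direction held throughout, but the call in unstimulated cells was lost under 14 of 22 alternatives, 9 of which left out 1 library, and the adjusted p ranged from 0.0174 to 0.154. With TGF-β1 the call was lost under 4, namely without library 2 or 3 of TGF-β1 control and without library 1 or 3 of TGF-β1 Smad7-KO (adjusted p of 0.05005 to 0.0865). C1rb, a near copy that shares 35.9% of the 100-base windows, had 0 to 2 counts per library.

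C3 (chr17:57203970-57228136, minus strand), the protein on which all pathways converge, was the most abundant member by counts, and its level varied among controls. Unstimulated control libraries had 518, 330.4 and 655 CPM, and unstimulated Smad7-KO libraries had 721, 822 and 767 CPM. In TGF-β1-stimulated cells the values were 637, 408 and 523 CPM in control and 657, 736 and 597 CPM in Smad7-KO cells. The unstimulated genotypes were separate and the stimulated ones overlapped. The difference of 0.62 on the log2 scale in unstimulated cells (SE 0.22) did not pass the test (edgeR adjusted p = 0.0595), nor did that of 0.34 with TGF-β1 (SE 0.22, adjusted p = 0.325). In unstimulated cells it passed under 4 of 22 alternatives. These were DESeq2 on all libraries (log2 0.63, adjusted p = 0.0281), correction of every library for its trend with gene length, alone or with the replicate number as a block (log2 0.40 for each, adjusted p = 0.0263 and 0.0366), and omission of library 3 of the unstimulated controls (log2 0.86, adjusted p = 0.00490). It was 0.40 without library 2, the library that stood apart (adjusted p = 0.121). Relative to 1000 summed CPM of the fibroblast markers, C3 was 44.9 to 57.6 in unstimulated control and 71.9 to 87.6 in unstimulated Smad7-KO cells, and 44.2 to 63.4 against 70.1 to 85.5 with TGF-β1, so that on this scale the genotypes were separate in both settings. Per 1000 summed CPM of the macrophage markers they overlapped, at 15.4 to 42.4 against 30.9 to 33.4 without TGF-β1 and 26.0 to 43.1 against 25.3 to 32.0 with it. Without Lyz2 they overlapped in unstimulated cells (58.1 to 100.9 against 73.8 to 83.1), and C3 was lower in Smad7-KO cells with TGF-β1 (73.5 to 104 against 62.5 to 70.8). The direction of the C3 difference thus depended on the markers used as the scale.

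C4b and properdin did not pass the test in any comparison. C4b (chr17:34728380-34743882, minus strand), which encodes C4, a part of the classical convertase, was 51.4, 38.1 and 60.5 CPM in unstimulated control and 49.2, 52.1 and 49.9 CPM in unstimulated Smad7-KO cells. With TGF-β1 it was 57.9, 41.7 and 54.5 CPM in control and 39.3, 49.2 and 49.0 CPM in Smad7-KO cells. The groups overlapped throughout, and the differences of Smad7-KO from control were 0.01 (95% interval -0.37 to 0.39) and -0.17 (-0.54 to 0.21) on the log2 scale. The copy C4a, which shares 16.5% of the windows, had 11 to 27 counts per library. Cfp (chrX:20925454-20931555, minus strand), whose product properdin stabilizes the alternative convertase, ranged from 203 to 413 CPM in unstimulated control cells, with library 2 highest and library 3 lowest, and was 234, 282 and 269.6 CPM in unstimulated Smad7-KO cells. The TGF-β1 values were 192, 242 and 219 CPM in control and 222, 219 and 254 CPM in Smad7-KO cells. In the control cells TGF-β1 gave a difference of -0.46 on the log2 scale (95% interval -0.92 to -0.0023, edgeR adjusted p = 0.245), which passed only without library 3 of the unstimulated controls (adjusted p = 0.0129) and was -0.16 without library 2. Without that library 3, the Smad7-KO difference of -0.19 in unstimulated cells was -0.41 (adjusted p = 0.0487), and without library 2 it was 0.12. Cfp did not rise with the macrophage markers. Per 1000 summed CPM of these it was 13.1 to 19.3 in unstimulated control and 10.2 to 11.5 in unstimulated Smad7-KO cells, and 13.0 to 15.5 against 9.50 to 10.8 with TGF-β1, lower without overlap in both settings. Serping1, C1ra and Cd55 were likewise lower on this scale in both settings, where the marker sum itself rose. Per 1000 summed CPM of the fibroblast markers, Cfp overlapped in both settings. It was 17.8 to 56.3 against 23.4 to 30.1 without TGF-β1, and 19.1 to 26.3 against 25.4 to 29.8 with it.

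Cfb (chr17:34856374-34862518, minus strand), which encodes the protease of the alternative convertase, had 0 to 4 counts per library and 10 in all, and was not tested. For most of its length the low counts cannot be read as absence. In all, 79.5% of its exon bases lie in exons of another annotated gene on the same strand, Gm20547. Reads in a shared stretch may have been assigned to neither. The rest of its exon bases are not shared on that strand. The low count of the gene covers them too, but counts were not split between the shared and the other bases. Gm20547 was listed at 0 in all 12 libraries.

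Serping1 (chr2:84765387-84775444, minus strand) encodes C1 inhibitor, the serpin that inactivates C1r and C1s. It was 255, 289.9 and 242 CPM in unstimulated control and 247, 292 and 252 CPM in unstimulated Smad7-KO cells. With TGF-β1 it was 225, 228 and 240.4 CPM in control and 266, 274 and 259 CPM in Smad7-KO cells. The unstimulated genotypes overlapped almost entirely (log2 difference 0.01, 95% interval -0.21 to 0.23). The stimulated genotypes were separate, with TGF-β1 control also below every unstimulated control library, but neither the difference of 0.21 for Smad7 loss (SE 0.10, edgeR adjusted p = 0.204) nor that of -0.18 for TGF-β1 in control cells (SE 0.10, adjusted p = 0.351) passed the test. The difference for Smad7 loss with TGF-β1 passed under 3 of 22 alternatives, with log2 0.39 when the length trend was removed, alone or with the replicate block (adjusted p = 0.00624 and 0.0140), and 0.22 in DESeq2 on only the 6 libraries compared (adjusted p = 0.0421). In unstimulated cells it was 0.26 with the length trend removed (adjusted p = 0.0418).

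**Figure D4:**
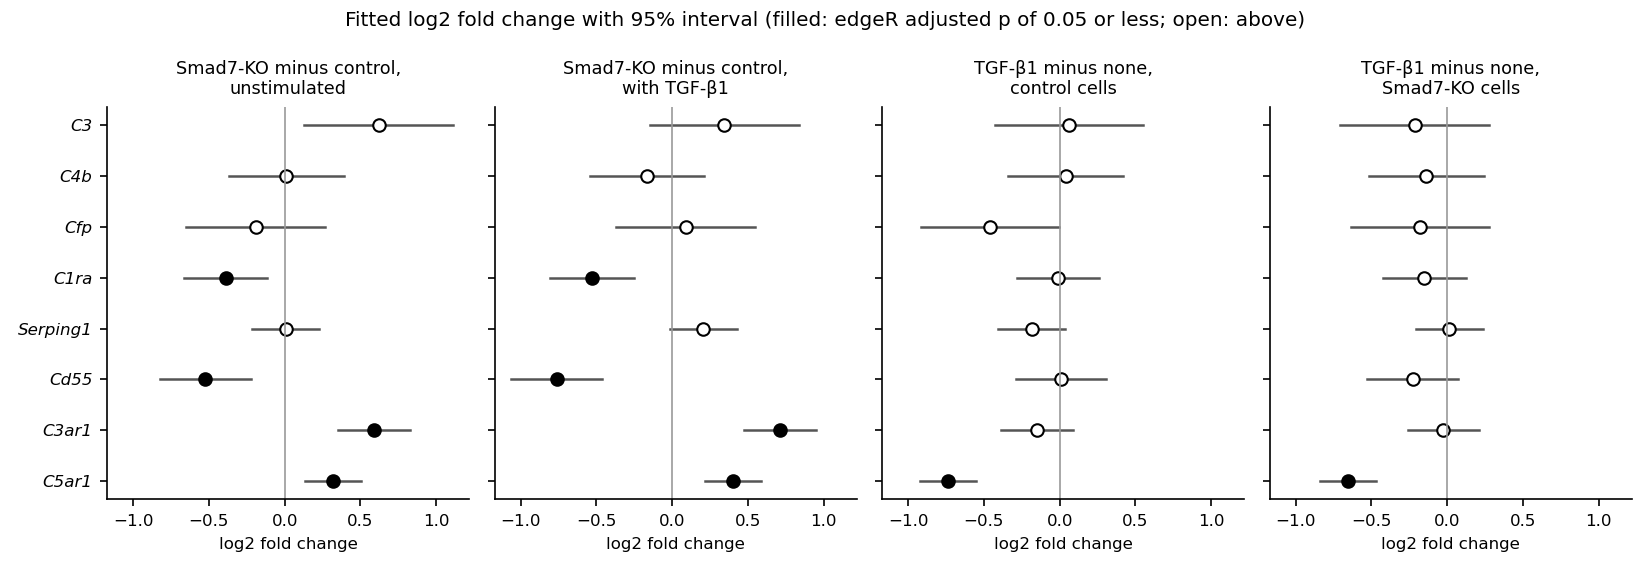
Fitted log2 fold change (x axes) of the 8 tested members (y axis) in 4 comparisons; bars are 95% intervals and filled points passed an edgeR adjusted p of 0.05. C3ar1 (0.59 and 0.71), C5ar1 (0.32 and 0.40), Cd55 (-0.52 and -0.76) and C1ra (-0.39 and -0.53) passed for Smad7 loss, and C5ar1 (-0.74 and -0.66) for TGF-β1.

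The interaction asked whether the effect of Smad7 loss differed between TGF-β1-stimulated and unstimulated cells. No member was called by edgeR, 0 of the 8 had an unadjusted p under 0.05, and among all tested genes 3 were called (0.0198%), with 392 under an unadjusted p of 0.05. The estimates of the members ranged from -0.28 for C3 (95% interval -0.97 to 0.42) to 0.28 for Cfp (-0.36 to 0.93), and DESeq2 on all libraries also called 0 members. The intervals are wide, and equal effects in both settings are not shown by this result. With 3 libraries against 3, an exact permutation test could not give a two-sided p under 0.1 for a single gene, so the tests rest on the spread shared across all genes and libraries.

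The other genes of the pathway were taken from a list of 64 complement genes, of which 63 were in the table and 40 were tested. Among the 32 tested genes other than the members, 6 rose and 8 fell with Smad7 loss in unstimulated cells (in all tested genes 12.1% rose and 13.7% fell), and 6 rose and 5 fell in TGF-β1-stimulated cells (5.72% rose and 7.23% fell). For TGF-β1, 0 of the 32 were called in control cells (8.37% of all tested genes), and 2 fell in Smad7-KO cells (10.2% of all tested genes called). The rises lay mostly among receptors, where 7 of 9 tested genes rose in each setting, C3ar1 and C5ar1 included, and 6 of the 8 falls in unstimulated cells lay among regulators. The median log2 change was 0.83 for the 9 receptors and -0.74 for the 6 soluble regulators in unstimulated cells, and 0.71 and -0.54 with TGF-β1, beside -0.02 for all tested genes in each setting.

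Among receptors, Itgam, Itgax and Itgb2 encode the chains of complement receptors 3 and 4, the integrins that bind fragments of C3b. Itgam was 263, 158 and 336 CPM in unstimulated control and 620, 666 and 659 CPM in unstimulated Smad7-KO cells, a rise of 1.36 on the log2 scale (SE 0.23, edgeR adjusted p = 0.00282). With TGF-β1 it rose by 1.02 (adjusted p = 0.0148), a call lost without library 2 of TGF-β1 control or library 2 of TGF-β1 Smad7-KO (adjusted p = 0.0672 and 0.0619). Itgax rose by 1.33 and 1.13 and Itgb2 by 0.71 and 0.69 on the same scale. The Itgb2 call in unstimulated cells was lost in edgeR on only the libraries compared (adjusted p = 0.0727). C5ar2, which encodes the second C5a receptor, rose by 0.83 and 0.87, in the same direction as C5ar1, although its level stayed low at 4.84 to 11.9 CPM as group means. Cd93, a lectin-like surface protein once described as a C1q receptor, rose by 1.54 and 1.21, and fell by 1.37 with TGF-β1 in Smad7-KO cells (adjusted p = 0.0144). The last 2 of these calls were lost under 6 and 3 of 22 alternatives, most of them the omission of 1 library of the compared groups. The call of 1.54 was lost in edgeR on only the libraries compared (adjusted p = 0.0600). C1qbp, named after its values were seen, was the 1 receptor gene of the list called as lower, in unstimulated cells (log2 -0.62, adjusted p = 0.0493), with overlapping libraries. The integrin chains and Cd93 are expressed by many myeloid cells, and the macrophage sums given above moved in the same libraries.

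Among regulators, Clu, which encodes clusterin, an inhibitor of the terminal complex, showed the largest fall of the list in both settings. It was 93.6, 113 and 71.4 CPM in unstimulated control and 12.5, 14.0 and 13.5 CPM in unstimulated Smad7-KO cells, and 73.2, 87.3 and 79.2 against 13.1, 13.4 and 13.4 CPM with TGF-β1. The groups were far apart, with log2 changes of -2.79 (SE 0.16, edgeR adjusted p = 1.62e-06) and -2.59 (SE 0.15, adjusted p = 3.8e-06). Thbd, which encodes thrombomodulin, fell by 0.55 without and by 1.14 with TGF-β1, and TGF-β1 lowered it by 0.99 in Smad7-KO cells. The call of 0.55 was lost without library 3 of unstimulated Smad7-KO (adjusted p = 0.065) and in edgeR on only the 6 libraries compared (adjusted p = 0.0861). Cd59a, which encodes an inhibitor of the membrane attack complex, fell by 0.99 in unstimulated cells (adjusted p = 0.00656) and was -0.58 with TGF-β1 (adjusted p = 0.0775). The former lost its call in edgeR on only the 6 libraries compared (adjusted p = 0.0753), and the latter passed under 6 of 22 alternatives, among them edgeR and DESeq2 on only the 6 libraries compared (adjusted p = 0.00401 and 5.81e-05). C4bp, whose product binds C4b, was -0.93 (adjusted p = 0.0365, lost under 11 of 22 alternatives) and -0.48 (adjusted p = 0.288). Thrombomodulin is a product of endothelial cells among others, and its fall and that of Clu accompanied the lower endothelial sums. The part of those cells was not tested.

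Upstream of the convertases, Colec11, a collectin that recognizes sugars, fell by 1.74 and by 1.53 on the log2 scale (edgeR adjusted p = 0.000360 and 0.00102), from group means of 13.9 and 10.2 CPM to 4.13 and 3.52 CPM. C1rl, a relative of C1r, was -0.23 in unstimulated cells (adjusted p = 0.0888) and fell by 0.38 with TGF-β1 (adjusted p = 0.0214, lost under 7 of 22 alternatives), the same direction as C1ra. The C1q chains did not pass in any comparison, with differences for Smad7 loss of -0.28 to 0.01 in unstimulated and 0.10 to 0.26 in TGF-β1-stimulated cells. Library 2 of unstimulated control had the highest and library 3 the lowest C1qa of that group, at 2910 and 1231 CPM, the same order as for Cfp. Itgam and the macrophage sum without Lyz2 ran the other way. They were 158 and 5685 CPM in library 2, and 336 and 6492 CPM in library 3. C1qa and Cfp have gene lengths of 1040 and 1636 bases, against 4803 for Itgam, and the part of length was not tested. Downstream, 1 of 7 terminal genes was tested (C8g) and did not pass, and Hc, the gene of C5, had 1 to 13 counts per library. Csmd1 and Cfhr2, both under an average log2 CPM of 1 and named after their values were seen, were further calls of the list, with Csmd1 higher in both settings and Cfhr2 lower in unstimulated cells.

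**Figure D5:**
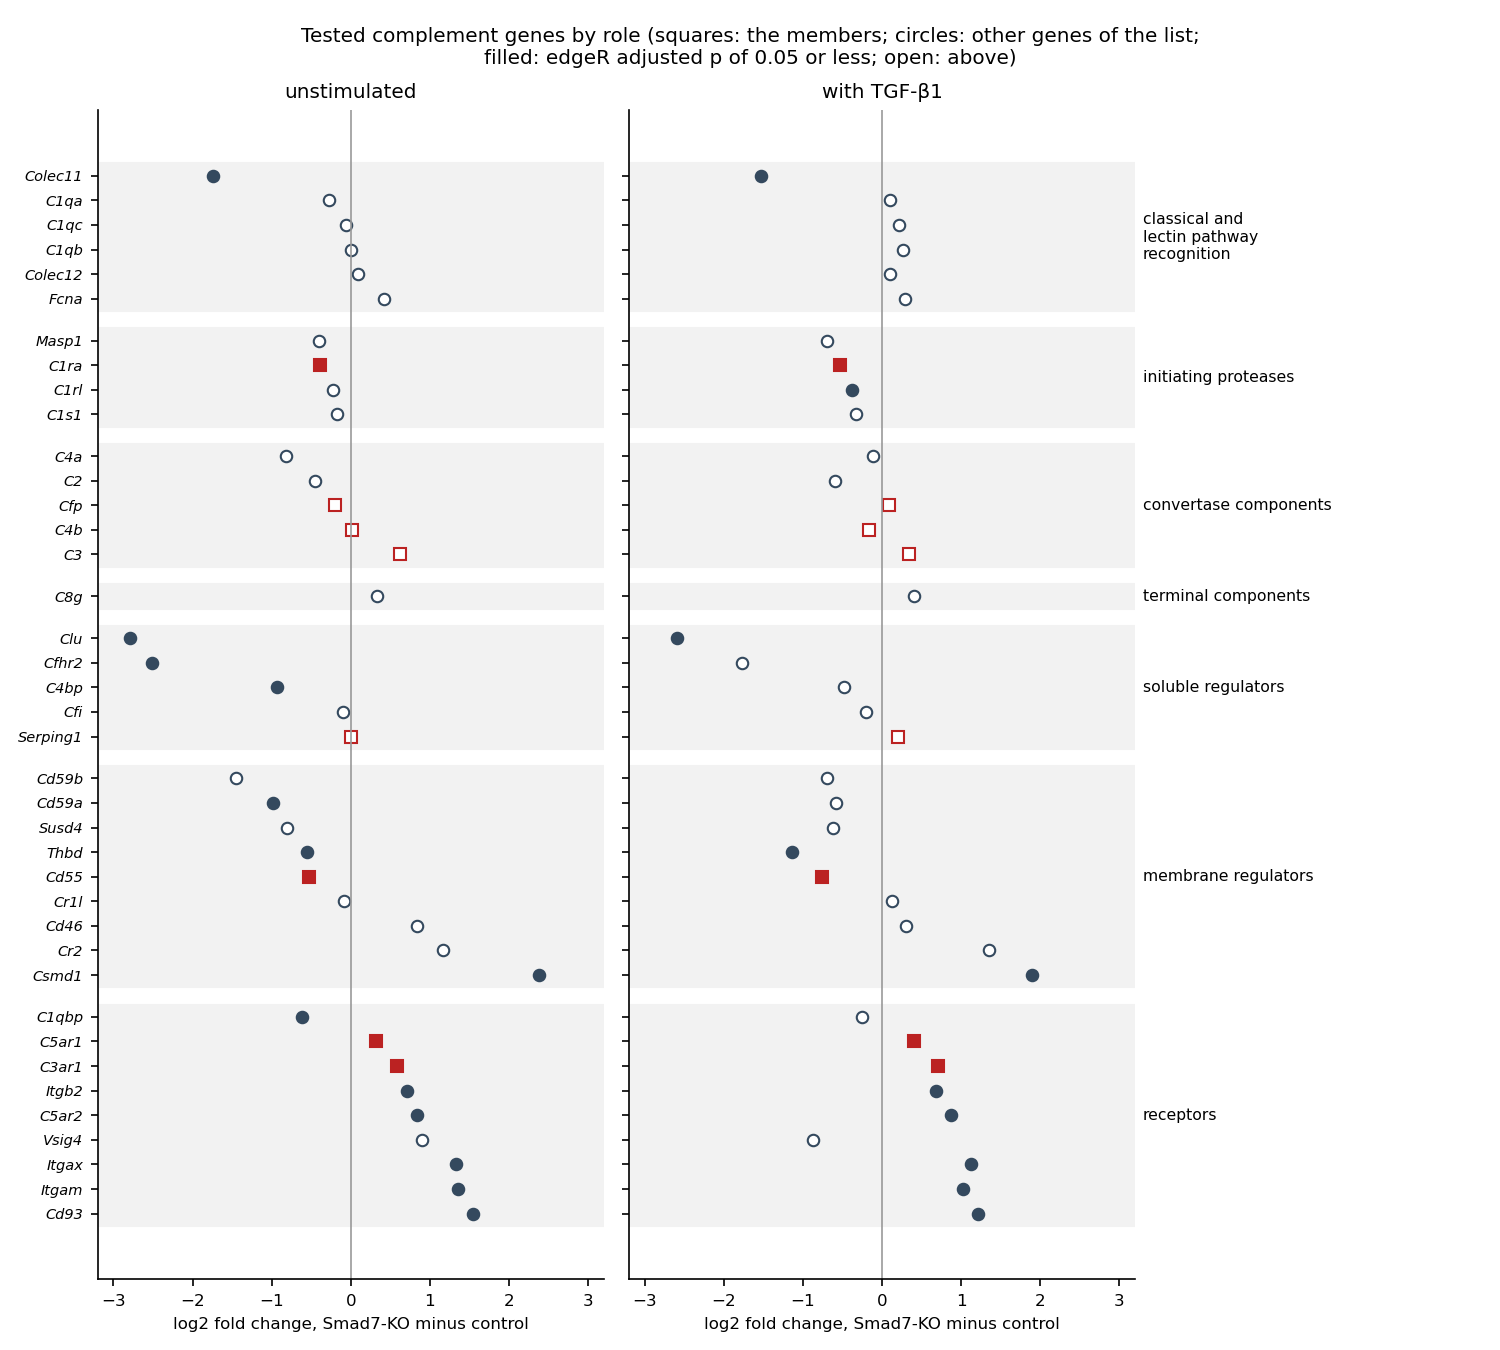
Log2 fold change of Smad7-KO over control (x axes) for the tested complement genes reported here, grouped by role (y axis), without TGF-β1 (left) and with it (right); squares are the members, circles the other genes, and filled symbols passed an edgeR adjusted p of 0.05. Of the 9 receptors, 7 are filled to the right of 0 in each panel, C1qbp is filled to the left of 0 without TGF-β1, and Clu lies farthest to the left (-2.79 and -2.59).

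Finally, for each tested member up to 2 genes whose profile over the 12 libraries lay closest were found among 12202 genes by the root mean square difference of centered log2 CPM. C3ar1 lay closest to Cd84 (0.08) and Slc11a1 (0.09), and C5ar1 to Fcgr3 (0.08) and Sesn1 (0.10). Cd55 lay closest to another member, C1ra (0.14), followed by Triqk (0.15), and C1ra to Lbp (0.08) and Gnb5 (0.10). The closest genes were Pogk (0.08) for C3, Pofut1 (0.08) and Nfe2l1 (0.10) for C4b, Ftl1 (0.06) and Spi1 (0.07) for Cfp, and Pnrc2 and Ik (0.06 each) for Serping1. These values describe likeness over 12 libraries, in which the genes share depth and cell composition, beside an SD of 0.12 to 0.41 of the members' own profiles.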

How the data were processed

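RNA was enriched with poly-T beads and sequenced on Illumina libraries. Raw read counts (whole numbers, 1 per gene and library) and FPKM values were deposited by the authors, and the FPKM equal count over gene length and library total within 0.1% for 35275 of 35275 genes. CASAVA, TopHat2 2.0, Cufflinks 2.1.1 and HTSeq 0.6.1 and the builds mm10 and GRCm38.p6 are named in the submitters' processing notes, and the strand setting is not given in the sources used here. The labels call the samples independent without naming animals, so p-values measure the spread between these samples. Columns of per-sample values without a sample numbered 0.

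Counts were fitted in edgeR 4.0.16 (R 4.3.3) over all 12 libraries, with TMM scaling, filterByExpr at a minimum count of 10 and robust quasi-likelihood dispersion. Adjusted p-values are Benjamini-Hochberg values over 15150 genes, called at 0.05. CPM values are TMM-scaled, SEs derive from the coefficient and its F statistic, and intervals are 95%. Depth was 19056916 to 25371321 counts per library, which limits genes with low counts.

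Members and gene lists were chosen with earlier results of these data known. Named besides the members were list genes called for Smad7 loss whose mean log2 CPM reached 1, up to 12 by adjusted p, and the exceptions stated. Values of 1 such gene and of 1 gene near a member's profile are not reported here. Symbols were matched as written. Cr2 had 2 rows, of which the one with 93 counts was used. Of the lists, 2 further symbols were not analysed here. Promoters were taken from RefSeq, and gene overlap and shared windows from GENCODE M21. Gene starts and ends in the table equal GENCODE for 8 of 9 members. Cardiomyocyte markers (5 tested, 2 fell without TGF-β1) and interferon-stimulated genes (24 tested, 4 rose without and 5 with TGF-β1) were further lists. Of 8 neutrophil markers, 4 were tested, and 2 rose and 0 fell in each Smad7-KO comparison. The median log2 change of the 4 was -0.05 without and 0.11 with TGF-β1. S100a8 and Camp had lower means in Smad7-KO cells in both settings, and the untested markers had at most 2 counts per library.

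Alternatives comprised DESeq2 1.42.0 with the 12 libraries or with those compared, edgeR on those compared, DESeq2 size factors, no filter, limma 3.58.1 on log2(FPKM + 1) and log2(FPKM + 0.1), removal of the trend on gene length, a block for the replicate number, and omission of each library in turn. Ratios to marker sums were added after seeing the data. Procedures were tested on simulated data.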

Additional observations from a re-analysis of the deposited data

How the results depend on the processing

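The count of 4 members called for Smad7 loss in TGF-β1-stimulated cells was 3 to 5 under the 22 alternatives. For Smad7 loss in unstimulated cells the count of 4 members was 0 in edgeR and 1 in DESeq2 on only the 6 libraries compared, 2 without a filter on low counts, and 1 to 6 when leaving out 1 library (1 without unstimulated Smad7-KO library 3, 2 without library 1, 6 without unstimulated control library 3, and 4 without unstimulated control library 2). The TGF-β1 count in control cells was 1 to 2 on leaving out 1 library, 2 without unstimulated control library 3. Cfp is then the added gene. Using the replicate number as a replicate block gave 4, 4, 1, 1 and 0 members for Smad7 loss (unstimulated, then with TGF-β1), for TGF-β1 (control, then Smad7-KO) and for the interaction, and 5, 5, 1, 1 and 0 with the length trend also removed. Same-numbered libraries correlated at -0.21 to 0.52 in their deviations from the group means, not above 0.1 in every pair. Differently numbered libraries correlated at -0.56 to 0.55. With 3 libraries per group, these values cannot tell whether same-numbered samples shared more than a number.

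No value passed the test in the setting that turned its direction. Of the results that turned, Cfp and Serping1 for Smad7 loss in unstimulated cells passed in another setting, without unstimulated control library 3 (-0.41) and with the length trend removed (0.26). With the length trend removed, and the same with the replicate block, the log2 changes were -0.25 and -0.25 for C4b and 0.12 and 0.13 for Cfp with Smad7 loss in unstimulated cells, and -0.042 and -0.042 for C3, -0.089 and -0.091 for C4b and -0.042 and -0.045 for Cd55 with TGF-β1 in control cells. Cd55 there was -0.0028 with DESeq2 size factors and -0.0028 in DESeq2. C1ra with TGF-β1 in control cells was 0.0014 without a filter and 0.017 and 0.020 with limma pseudocounts of 1 and 0.1, and Serping1 with TGF-β1 in Smad7-KO cells was -0.019 with each. Serping1 with Smad7 loss in unstimulated cells was -0.0011 in DESeq2 on the libraries compared. Leaving out 1 library gave ranges with TGF-β1 in control cells of -0.063 to 0.025 for C1ra, -0.17 to 0.30 for C3, -0.12 to 0.20 for C4b and -0.022 to 0.076 for Cd55. The ranges with TGF-β1 in Smad7-KO cells were -0.069 to 0.048 for C3ar1 and -0.032 to 0.093 for Serping1, and those with Smad7 loss in unstimulated cells -0.15 to 0.17 for C4b, -0.41 to 0.12 for Cfp and -0.069 to 0.089 for Serping1. The interaction of Cfp was -0.010 to 0.49. The cause of these turns was not tested. Over single genes, 88 values lost and 17 gained a call without a change of direction. Low counts limit Cfb, at 0 to 4 counts, and genes of the terminal pathway.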
